A study of Mus musculus with 22 samples.

Results

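Bulk RNA sequencing of CD11b+ cells from the mouse brain was compared between animals with hypoxic-ischemic encephalopathy (HIE) and animals with hypoxia alone at postnatal day 14 (P14). The comparison covered 8 animals with 10 libraries, out of 20 animals with 22 libraries in the series, and the members were chosen by their treatment and age labels. The mice were wildtype and of CF-1, an outbred strain. In the HIE group (4 animals, 6 libraries), the dam received lipopolysaccharide (LPS), a component of the outer membrane of Gram-negative bacteria, by intraperitoneal injection at 50 µg/kg on embryonic day 18, and the pups underwent 8 min of hypoxia on P6. The hypoxia group (4 animals, 4 libraries) carries only the label Hypoxia, and what its dams received is not described in the sources used here. The question the comparison addresses is what the prenatal LPS adds to the hypoxia.

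Each group held 2 males and 2 females from 2 litters, as far as the name prefixes mark litters. The HIE animals came from P4H1 and P6H12 and the hypoxia animals from P6H7 and P6H9. Each litter belonged to 1 treatment, so litter and treatment cannot be told apart, and p-values measure the spread between animals. The 4 control animals of the same age, from litters P4H4 and P6H8, are given beside the results as a reference. Values of single animals are listed litter by litter in the order of the names above, the male before the female. The names begin with P4H or P6H, and the sources used here do not say what this marks. Only P4H1 and the control litter P4H4 carry P4H, while all hypoxia animals carry P6H, so this prefix is partly confounded with treatment. The names of the hypoxia libraries all end in RNA2. Those of the HIE libraries end in RNA3 or RNA4, except RNA2 in the P6H12 female. What this suffix marks is not described, so it is nearly confounded with treatment. Only the preparation of cells at P7 is described, and it was taken to apply to P14. RNA of a cell mixture was measured, so that fewer cells of a type and less RNA per cell cannot be told apart.

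CD11b is an integrin chain on microglia, the resident macrophages of the brain, and on border-associated macrophages, monocytes and neutrophils. Macrophages detect LPS through TLR4 with its partner MD-2 (Ly96) and the coreceptor CD14, and this receptor drives NF-kB targets such as cytokines as well as an interferon response. Lack of oxygen stabilises the transcription factor HIF-1, which raises genes of glycolysis and of vessel growth. In the second postnatal week, microglia take part in clearing cells and myelin debris, and a subset near axon tracts carries Itgax, Spp1 and Gpnmb.

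The only 2 genes that passed the test, Gm9118 and Gm6477, are processed copies of Npm1, a gene for a nucleolar chaperone of ribosome assembly. The gene next in order of p, Gm14681, is a copy of Npm1 as well. A search of the GENCODE M39 transcripts found 7 copies with at least 90% identity to the transcript Npm1-201 over at least 50% of their length. In this alignment, these 3 copies, and no other of the 7, lacked exactly the same 9 bases of Npm1. The 9 bases lie in exon 6 of Npm1, within the coding sequence, on chromosome 11 from 33109951 to 33109959 on the minus strand of GRCm39, in a repeat that codes for acidic residues. Since the stretch is repetitive, neighbouring placements of the gap are equally good. The following stretches are shown because they hold this difference, and are written 5′ to 3′ along the transcripts. Capitals mark the 9 missing bases in the Npm1 line and the bases substituted relative to Npm1 in the other lines.
Npm1: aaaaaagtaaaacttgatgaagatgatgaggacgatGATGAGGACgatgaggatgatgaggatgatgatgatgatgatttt
Gm9118: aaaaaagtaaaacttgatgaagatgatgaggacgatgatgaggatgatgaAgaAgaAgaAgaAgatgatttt
Gm6477: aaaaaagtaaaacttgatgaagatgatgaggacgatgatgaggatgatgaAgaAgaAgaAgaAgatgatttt
Gm14681: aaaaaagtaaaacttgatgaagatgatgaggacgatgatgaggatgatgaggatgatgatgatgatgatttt

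Over this stretch Gm9118 and Gm6477 were identical to each other and carried 5 substitutions, G778A, T781A, T784A, T787A and T790A, with positions counted from the first base of Npm1-201. Gm14681 differed from Npm1 there by the missing bases only. Across the whole alignment, identity to Npm1-201 was 96.99% for Gm9118, 96.09% for Gm6477 and 97.38% for Gm14681. RSEM, with which the authors counted, shares out reads between matching genes, so the counts of the copies are uncertain. Of the 50-base windows of each copy, 51.2% in Gm9118, 70.8% in Gm6477 and 26.5% in Gm14681 had no exact match in any Npm1 transcript. Whether these windows match the other copies was not tested. Reads of a copy could thus be counted for another copy, and the copies need not be separate signals.

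Total counts per library lay between 31810227 and 46404123 in the HIE group and between 31474918 and 38017600 in the hypoxia group. The smallest level told from 0 here, 3 counts, equalled 0.0646 to 0.0953 CPM, the count scaled to a library of 1e6 counts, in these libraries. These limits cover counting error only. The 2 HIE animals with 2 libraries each were summed, since the libraries of an animal differed by a chi-square of 5.61 and 9.95 per gene against 28.1 to 94.2 for other pairs. The labelled cell type was checked by its defining markers. Tmem119 reached 1193 to 1923 CPM and P2ry12 3246 to 5369.7 CPM in HIE animals, and 1060.4 to 1878 and 2827 to 5057 CPM in hypoxia animals.

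Of 20949 genes tested with edgeR's quasi-likelihood test, 2 passed an adjusted p of 0.05, which is 0.00955% of them, and both were lower in HIE. No gene passed in the other direction, where 562 genes (2.68%) had an unadjusted p under 0.05 and where DESeq2 and edgeR's exact test called 9 genes each. In the direction of lower levels in HIE, 384 genes (1.83%) did. Together these are 946 genes, and 1047 would be 5% of the genes tested. Every HIE animal lay above every hypoxia animal in 344 genes (1.64%) and below in 214 genes (1.02%). The median log2 fold change over all genes was -0.0083. The median SE was 0.218, and 71.4% of genes had a 95% interval inside 1 log2 unit in either direction, so larger differences lay outside the intervals of most genes.

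Gm9118 (ENSMUSG00000112825.2) lies on chromosome 10 from 56373437 to 56374190 on the plus strand and overlaps no other annotated gene. Its level was 0.440, 0.311, 0.195 and 0.240 CPM in the HIE animals, from 8 to 22 counts, and 8.35, 8.46, 6.74 and 6.56 CPM in the hypoxia animals, from 218 to 313 counts. All 4 HIE animals were near the floor of detection and the groups lay far apart. The level was 25.8-fold lower in HIE (log2 fold change -4.69, SE 0.290, adjusted p = 0.000279 in edgeR's quasi-likelihood test). Gm6477 (ENSMUSG00000111877.2), on chromosome 10 from 39074534 to 39075297 on the plus strand, stood at 0.278, 0.283, 0.140 and 0.120 CPM in HIE and at 2.12, 1.73, 2.11 and 1.57 CPM in hypoxia (log2 fold change -3.19, SE 0.351, adjusted p = 0.0348 in the same test). Gm14681 (ENSMUSG00000081603.2) lies on chromosome X from 65822048 to 65822458 on the minus strand and overlaps an exon of the long noncoding RNA Gm62077. Gm14681 did not pass the threshold and was named after its values were seen. Its levels were 1.02, 0.565, 0.433 and 0.660 CPM in HIE and 3.22, 3.97, 2.74 and 2.35 CPM in hypoxia (log2 fold change -2.23, SE 0.320, adjusted p = 0.238 in the same test). Gm14681 passed in edgeR without a filter on low counts (adjusted p = 0.0453), in DESeq2 (adjusted p = 4.93e-08) and in edgeR's exact test (adjusted p = 2.03e-06). The groups did not overlap in any of the 3 copies, but these results may depend on each other, since the copies could share reads.

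The controls divided between these levels. Gm9118 stood at 6.34, 6.82, 0.441 and 12.2 CPM in the control animals, Gm6477 at 2.54, 1.70, 0.347 and 4.02 CPM and Gm14681 at 2.79, 3.72, 0.693 and 4.89 CPM. In each copy the P6H8 male lay at the level of the HIE animals or close to it, and the other 3 control animals lay close to the hypoxia animals or above them. The HIE group differed from the controls by -4.44 in Gm9118 (adjusted p = 0.222, edgeR), and the hypoxia group by 0.22 (adjusted p = 0.939), on the log2 scale. These 2 comparisons share the controls. Npm1 itself stood at 158 to 232 CPM in HIE animals and 161 to 203 CPM in hypoxia animals (log2 fold change 0.13, 95% interval -0.17 to 0.43). The counts of the 3 copies together came to 0.484 to 0.748% of the Npm1 count in HIE animals and to 6.46 to 7.76% in hypoxia animals. In controls this share was 6.71 and 7.28% in P4H4, and 0.928 and 14.9% in P6H8. The copy Gm5611, which lacks 24 bases at the same place, held 0 to 2 counts in HIE animals and 3 to 11 in hypoxia animals, too few for the filter on low counts.

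**Figure D1:**
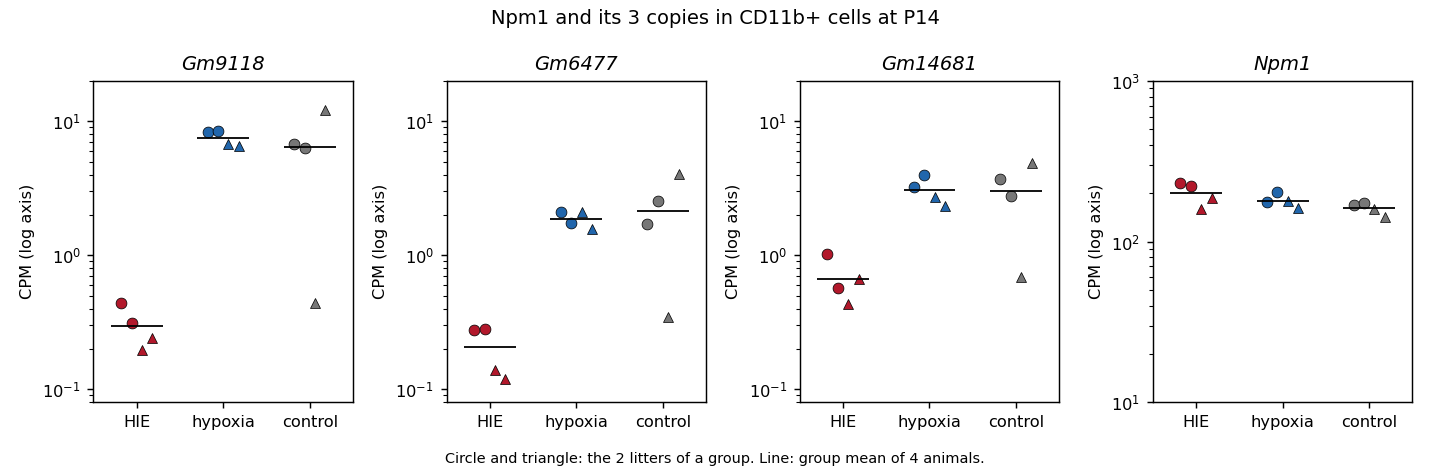
Level of Npm1 and of its copies Gm9118, Gm6477 and Gm14681 in each animal, in CPM on log axes. Each point is an animal, circles and triangles are the 2 litters of a group and lines are group means; the 4 HIE animals lie below the 4 hypoxia animals in each copy but not in Npm1, and 1 control lies with the HIE animals.

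The call of Gm6477 was lost when any of the 8 animals was left out (adjusted p = 0.0882 to 0.138) and with litter as a random block in limma-voom (adjusted p = 0.183). Gm9118 passed in all of these settings and when the 2 animals of each litter were summed, 2 litters against 2 (edgeR adjusted p = 0.0164). With the control animals in the fit, neither passed (adjusted p = 0.317 for both), and 0 genes were called, with 1253 at an unadjusted p under 0.05 in edgeR.

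Other pseudogenes also had reads in hypoxia animals and few or none in HIE animals, and they were named after their values were seen. Rpl30-ps9, on chromosome X from 104322243 to 104322587 on the minus strand, is 99.42% identical to the ribosomal protein transcript Rpl30-201 over its 345 bases. It had 0 counts in all 4 HIE animals and 1.69, 2.68, 15.3 and 10.8 CPM in the hypoxia animals, at least 139-fold higher than the mean level of 3 counts per HIE animal (edgeR adjusted p = 0.387). It passed in DESeq2, in edgeR's exact test, without a filter on low counts and with P6H9 as the only hypoxia litter. It was listed at 0 in 3 of the 4 controls. Nlrp1c-ps, on chromosome 11 from 71133256 to 71172045 on the minus strand, was at 16.1, 13.3, 0.0790 and 10.4 CPM in the hypoxia animals, so that the P6H9 male stood apart from the other 3. It held 0 to 7 counts in HIE animals and 1 to 5 in controls, and the filter on low counts left it untested. In edgeR it passed without that filter (adjusted p = 0.0453), in litter sums (0.0461), with P6H7 as the only hypoxia litter (0.00437), in females only (0.0411) and without the P6H9 male (0.00217).

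No protein-coding gene passed the threshold. Among the 10 with the smallest p and a higher level in HIE was Itgax, which encodes CD11c, an integrin chain of dendritic cells and of the axon-tract microglia. Itgax stood at 22.0, 30.1, 32.9 and 22.8 CPM in the HIE animals and at 14.4, 9.17, 13.9 and 11.2 CPM in the hypoxia animals. The HIE and hypoxia groups did not overlap (log2 fold change 1.13, SE 0.185, adjusted p = 0.387, 95% interval 0.71 to 1.54, edgeR). The controls (18.5, 14.9, 22.2 and 28.2 CPM) lay above the hypoxia animals and reached into the range of the HIE animals. Lgi2, a secreted protein with leucine-rich repeats, stood at 10.7, 11.0, 11.6 and 6.99 CPM in HIE and 3.41, 3.49, 4.85 and 4.58 CPM in hypoxia (log2 fold change 1.28, SE 0.207, adjusted p = 0.387, edgeR). Measured against the controls, Itgax differed by 0.36 in HIE and by -0.78 in hypoxia, and Lgi2 by 0.40 and -0.90, on the log2 scale, in 2 comparisons that share the controls. DESeq2 and edgeR's exact test, which each called more genes, called both (adjusted p = 6.62e-06 and 0.000830 for Lgi2, 0.000105 and 0.000396 for Itgax).

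The other 8 of these genes had an adjusted p of 0.999 in edgeR's quasi-likelihood test. Of these, DESeq2 and edgeR's exact test both called Wfdc2, Ak1, Pwwp4b and Gm43302, while DESeq2 alone called Smo and Nhs and the exact test alone Pwwp4d. Smo, the signal transducer of the Hedgehog pathway, was at 73.9, 76.9, 71.5 and 70.3 CPM in HIE and 45.7, 51.4, 53.3 and 60.2 CPM in hypoxia. Ak1, a kinase that interconverts adenine nucleotides, was at 59.5, 52.9, 47.8 and 38.4 CPM and 28.9, 31.9, 29.0 and 19.7 CPM. Gaa, the lysosomal enzyme that breaks down glycogen, was at 129.6, 137, 126 and 113 CPM and 90.8, 85.98, 101 and 97.7 CPM. In each of these the lowest HIE animal lay above the highest hypoxia animal. Nhs had log2 fold change 1.06 and Wfdc2, a secreted protein of epithelia, 1.56. The near-identical family members Pwwp4b and Pwwp4d on chromosome X had 3.68 and 2.96 from low levels, at most 1.51 CPM in any HIE animal. Gm43302 had 3.24, and it overlaps the guanylate-binding protein genes Gbp10 (2.62) and Gbp6 (-1.09) on chromosome 5, so that their reads could be divided among them. Their log2 fold changes did not share a sign.

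Among the 10 protein-coding genes with the smallest p and a lower level in HIE, Zfp33b, a zinc finger gene, stood at 12.9, 12.3, 14.5 and 13.4 CPM in HIE and 25.7, 21.5, 20.9 and 18.5 CPM in hypoxia (log2 fold change -0.73, SE 0.132, adjusted p = 0.609, edgeR). The controls (10.1, 12.6, 9.51 and 12.4 CPM) lay near the HIE animals, and DESeq2 and edgeR's exact test called the gene. Ddit3, a transcription factor of the stress response also known as CHOP, was at 10.9, 12.4, 13.3 and 9.51 CPM and 17.7, 17.3, 14.4 and 16.9 CPM. Ccn2, a matrix protein induced by TGF-beta and by YAP, was at 17.6, 14.2, 17.7 and 16.4 CPM and 23.05, 29.7, 19.2 and 33.1 CPM. In Zfp33b, Ddit3 and Ccn2 the groups did not overlap. Igfbp3, which binds insulin-like growth factors, was at 40.5, 43.1, 34.4 and 39.2 CPM and 109.6, 65.9, 37.0 and 120.4 CPM, and the P6H9 male lay among the HIE animals. Gfra2, a receptor for GDNF family ligands, had log2 fold change -1.34. The remaining genes were Qsox1 (-0.51), Abcg3 (-0.51), Gm29394 (-1.25), Ifit1 and Gbp6. The last 9 of these 10 had edgeR adjusted p of 0.999. Zfp33b, Abcg3, Gm43302 and Gbp6 are neighbours on chromosome 5, between 104719508 and 105443751, and Gbp10 lies there too. Against controls, the hypoxia group differed by 0.96 in Zfp33b, 0.58 in Abcg3, -4.17 in Gm43302 and 1.02 in Gbp6, on the log2 scale. The HIE group differed by 0.25, 0.09, -0.91 and -0.06. Whether these neighbours vary as 1 stretch was not tested.

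**Figure D2:**
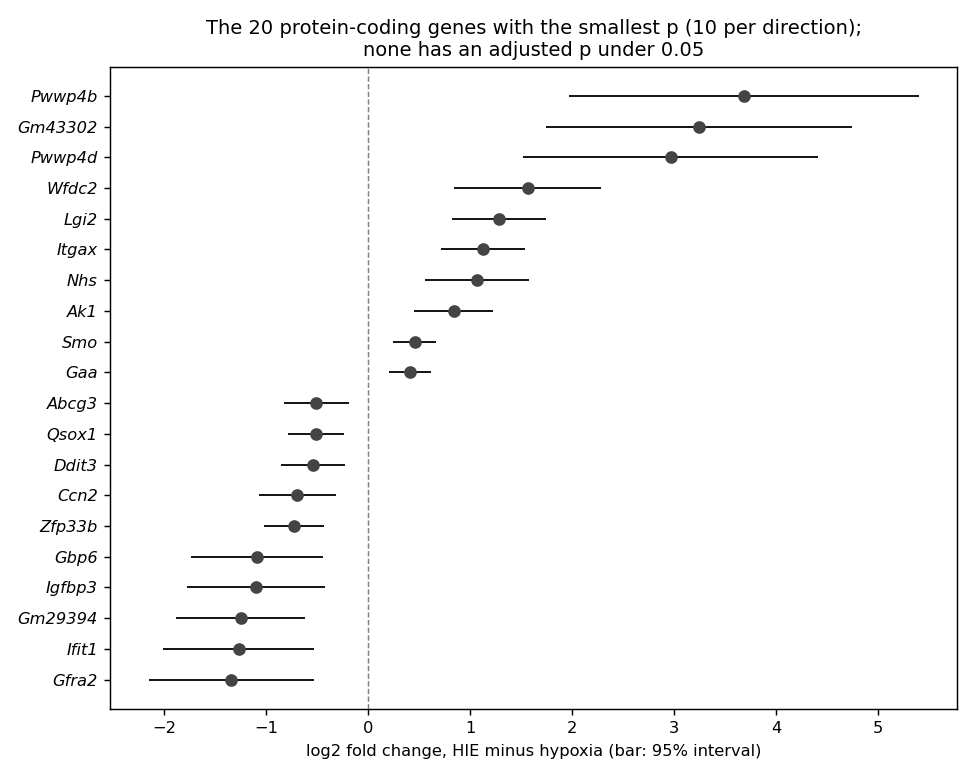
Log2 fold change (HIE minus hypoxia) with its 95% interval for the 20 protein-coding genes with the smallest p, 10 in each direction. Intervals leave out 0 because the genes were chosen by p, and no gene has an adjusted p under 0.05.

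The genes of LPS detection showed no call. Since only 0.00955% of all genes were called, the lack of a call says little about any single list. Of 30 genes of LPS recognition and Toll-like receptors, 14 had a positive log2 fold change, and the median was -0.016 against -0.0083 over all genes. Tlr4 stood at 129.9, 121, 117 and 119 CPM in HIE and at 182, 136, 116 and 135 CPM in hypoxia. The HIE animals lay within a narrow span that the hypoxia group overlapped (log2 fold change -0.25, 95% interval -0.55 to 0.06). For Ly96 the log2 fold change was -0.22 (-0.57 to 0.14), and for Cd14 it was 0.13 (-0.35 to 0.61). In this list 1 gene in each direction had an unadjusted p under 0.05, beside 2.68% (higher in HIE) and 1.83% (lower) of all genes. Lbp, the serum protein that hands LPS to CD14, was at 76.9, 45.4, 35.3 and 46.8 CPM in HIE and 10.8, 20.5, 34.1 and 34.5 CPM in hypoxia, and Tlr1, a receptor of bacterial lipopeptides, at 24.4, 24.8, 46.4 and 40.6 CPM and 51.7, 47.9, 45.7 and 73.4 CPM. The adjusted p of both was 0.999.

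Downstream of the receptor, 12 of 24 NF-kB subunits and feedback targets had a positive log2 fold change (median -0.010). At an unadjusted p under 0.05, 2 genes that act on NF-kB signalling, Traf1 (1.00) and Tnip3 (1.01), were higher in HIE, beside 2.68% of all genes. At the same level 2, Nfkbid (-0.58) and Nfkbiz (-0.37), were lower, beside 1.83% of all genes. Of 28 cytokine and inflammasome genes, 10 were positive (median -0.066). Il1b stood at 37.6, 57.1, 37.5 and 26.6 CPM in HIE and 44.4, 16.6, 68.5 and 37.5 CPM in hypoxia (log2 fold change -0.09, 95% interval -0.89 to 0.71). Tnf stood at 26.0, 40.9, 13.6 and 10.1 CPM and 37.5, 16.4, 31.0 and 30.6 CPM (-0.37, -1.26 to 0.52). Animals of the same group differed widely in both cytokines, and these intervals leave room for a difference of more than 1.5 times either way in Il1b. Il6st, the shared receptor chain of the interleukin-6 family, had 0.33 and an unadjusted p of 0.0327. Of 22 chemokine and chemokine receptor genes, 6 were positive and the median was -0.17. Ccl12, a ligand of CCR2, had -0.72 and Ccr2, the receptor of inflammatory monocytes, 0.57. None of these lists held a called gene, beside 0.00955% of all genes.

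Interferon-induced genes had mostly lower values in HIE, without a call. Of 31 genes, 28 had a negative log2 fold change, with a median of -0.28. At an unadjusted p under 0.05, 9 were lower and 0 higher, beside 1.83% and 2.68% of all genes. Every HIE animal lay below every hypoxia animal in 4 genes, beside 1.02% of all genes, and in 1 it was the reverse, beside 1.64%. Ifit1, an RNA-binding antiviral protein, stood at 1.71, 1.48, 1.91 and 2.37 CPM in HIE and 3.44, 3.68, 2.84 and 7.86 CPM in hypoxia (log2 fold change -1.27, SE 0.332, adjusted p = 0.999, edgeR). Oasl2 stood at 3.71, 4.51, 5.69 and 5.52 CPM and 6.54, 6.35, 6.64 and 15.1 CPM, and Usp18, a feedback inhibitor of the interferon receptor, at 2.02, 1.77, 2.61 and 2.85 CPM and 3.44, 2.76, 3.66 and 6.68 CPM. In these 3 genes the P6H9 female was the highest hypoxia animal, at 15.1 CPM in Oasl2. The median of the list was -0.52 without the P6H12 female and -0.20 without the P6H9 female, the extremes among the settings without 1 animal. It was -0.62 with P4H1 and -0.29 with P6H12 as the only HIE litter, and -0.17 with P6H7 and -0.54 with P6H9 as the only hypoxia litter.

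Immediate early genes, which cells raise within minutes of stimulation, were likewise mostly lower in HIE. Of 29 genes, 25 had a negative log2 fold change (median -0.30). At an unadjusted p under 0.05, 2 were lower in HIE, beside 1.83% of all genes. Ier2 stood at 97.8, 156, 147 and 107 CPM in HIE and 207, 177, 156 and 189 CPM in hypoxia, and Ier5 at 216, 293, 233 and 199 CPM and 348, 309, 261 and 258 CPM. Only the P4H1 female and the P6H9 male, which were nearly equal in Ier2, kept the groups from lying apart in that gene. The list's summed level was 7732 to 13688 CPM in HIE and 9828 to 15799.8 CPM in hypoxia. The median was -0.48 without the P4H1 female and -0.14 without the P6H7 male, the extremes among the settings without 1 animal.

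No gene of resident microglia was called, beside 0.00955% of all genes. Of 23 homeostatic genes 19 had a positive log2 fold change (median 0.12). At an unadjusted p under 0.05, 2, Olfml3 and Slc2a5, were higher in HIE, beside 2.68% of all genes. Olfml3, a secreted microglial protein, stood at 529, 476, 449.8 and 369 CPM in HIE and 264, 299, 191 and 125 CPM in hypoxia (log2 fold change 1.02, SE 0.249, adjusted p = 0.999, edgeR). The groups did not overlap, but the controls reached from 72.1 to 325 CPM. The 95% interval of the log2 fold change was -0.31 to 0.66 for Tmem119, -0.51 to 0.54 for the purinergic receptor P2ry12 and -0.30 to 0.62 for the fractalkine receptor Cx3cr1. Apoe, the lipid carrier that reactive microglia raise, stood at 2526 to 3997 CPM in HIE and 2264 to 3821 CPM in hypoxia (0.21, -0.25 to 0.68).

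Of 30 genes of axon-tract and disease-associated microglia, 21 were positive (median 0.15). At an unadjusted p under 0.05, 7 were higher in HIE and 0 lower, beside 2.68% and 1.83% of all genes. Beside Itgax, these were Mmp12 (1.39), Axl (0.33), Cd63 (0.33), Anxa2 (0.48), Cd9 (0.40) and Lpl (0.41). Spp1 and Gpnmb were not among these 7, and 9 genes of the list were negative, down to -0.67. Axl, a receptor for the uptake of dying cells, stood at 92.9, 118, 107 and 96.8 CPM in HIE and 76.4, 71.3, 92.8 and 85.3 CPM in hypoxia. Mmp12, the macrophage elastase, stood at 1.41, 2.61, 2.51 and 1.14 CPM and 1.21, 0.406, 0.738 and 0.542 CPM, and the P4H4 control male was above all of these at 10.5 CPM. The list median was positive without any 1 animal (0.13 to 0.22) and was 0.36 with P4H1 and 0.040 with P6H12 as the only HIE litter.

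Of 36 lysosomal and phagocytic genes 31 were positive (median 0.12). Of these 4, Gaa, Axl, Ctsz and Npc1, had an unadjusted p under 0.05 and were higher in HIE, beside 2.68% of all genes. Of 21 complement genes 17 were positive (median 0.12), the only 1 at an unadjusted p under 0.05 being Vsig4, a complement receptor, at 0.626, 0.481, 0.544 and 0.330 CPM in HIE and 0.169, 0.243, 0.395 and 0.211 CPM in hypoxia. With P6H12 as the only HIE litter, the medians of homeostatic, lysosomal and complement genes turned to -0.031, -0.024 and -0.045. In 24 genes of antigen presentation the median was 0.019, and -0.015 when counts were scaled by library size alone. In this list 4 class II genes had an unadjusted p under 0.05 and were higher in HIE, beside 2.68% of all genes. These were Cd74 (0.82), the transactivator Ciita (0.95), H2-Ab1 (0.77) and H2-Aa (0.71). Cd74, the chain that escorts class II molecules, stood at 95.5, 169.8, 229.8 and 120.5 CPM in HIE and 113, 73.4, 89.2 and 67.2 CPM in hypoxia. The P4H1 male lay within the hypoxia group in Cd74, and in H2-Ab1 the P6H12 female did. The dendritic cell marker Cd209a, at 7.78, 10.5, 14.5 and 8.01 CPM and 8.80, 5.70, 5.93 and 2.95 CPM, and the monocyte marker Ccr2, at 15.2, 18.01, 27.7 and 14.9 CPM and 15.9, 12.1, 10.9 and 11.4 CPM, were higher in HIE at an unadjusted p of 0.0367 and 0.0261. Each was the only 1 of its marker list at an unadjusted p under 0.05, beside 2.68% of all genes. Of the dendritic cell markers 7 of 9 had a positive log2 fold change, and of the monocyte markers 6 of 10. The part of these cells in the values of the class II genes was not tested.

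**Figure D3:**
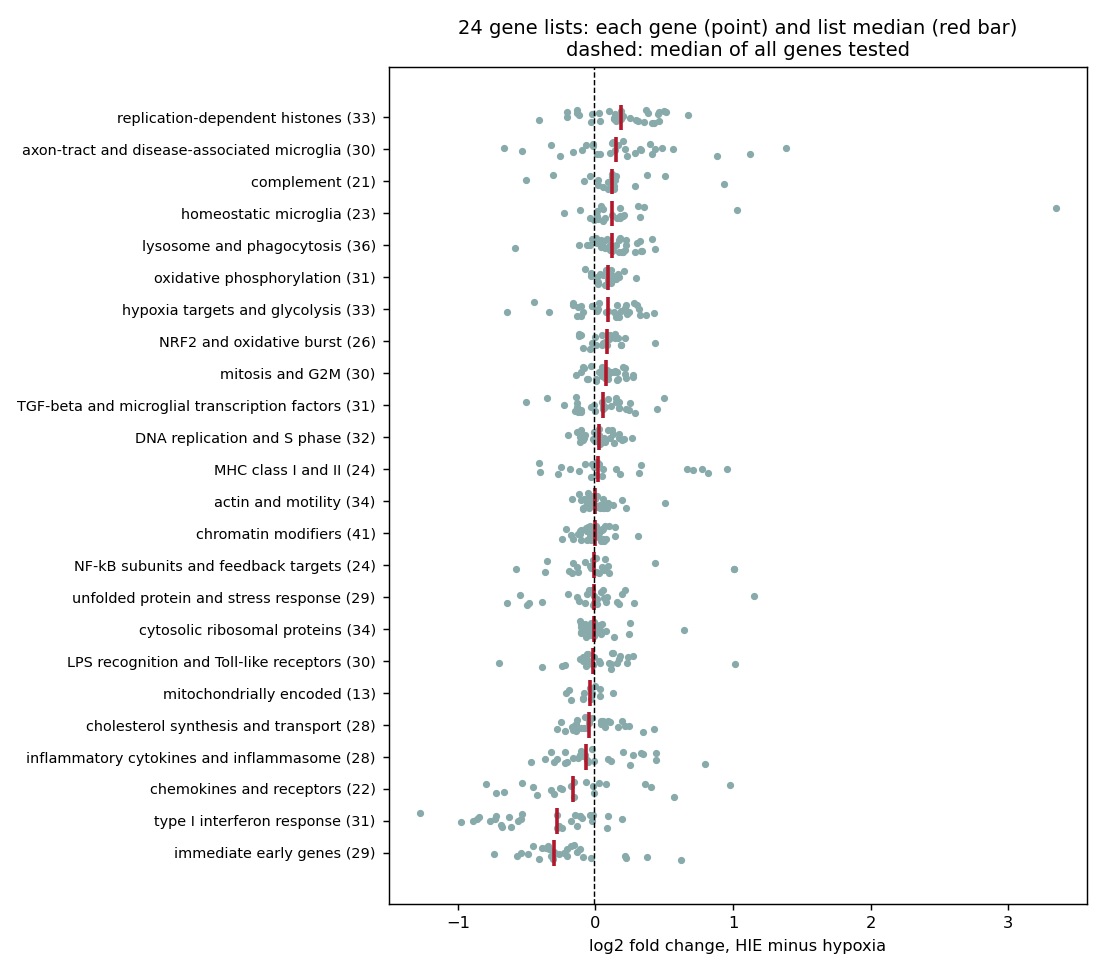
Log2 fold change (HIE minus hypoxia) of every tested gene (points) in 24 lists, with the median of each list (red bars) and the number of genes tested. Most points lie within 1 log2 unit of 0, and interferon and immediate early genes have the lowest medians, at -0.28 and -0.30.

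Targets of hypoxia signalling held no called gene, beside 0.00955% of all genes. Of 33 such genes and genes of glycolysis, 21 were positive (median 0.092). At an unadjusted p under 0.05, 0 were higher and 0 lower, beside 2.68% and 1.83% of all genes. Hif1a stood at 199.7, 174, 156 and 142 CPM in HIE and 152, 165, 154 and 149 CPM in hypoxia (0.09, 95% interval -0.16 to 0.35). Vegfa, the vessel growth factor, stood at 17.5, 10.2, 14.2 and 15.0 CPM and 12.0, 14.1, 15.9 and 14.9 CPM (-0.02, -0.40 to 0.35). The interval of Hif1a, with litter mates taken as independent, stayed within 1 log2 unit in both directions. Nuclear genes of oxidative phosphorylation were positive in 28 of 31 (median 0.092) and mitochondrially encoded genes in 3 of 13 (median -0.037). With P6H12 as the only HIE litter, the median of the nuclear genes was -0.19, so its sign rested on P4H1. The mean log2 CPM of the nuclear genes was 5.96 and 5.77 in P4H1 and 5.74 and 5.79 in the control litter P4H4. It was 5.33 and 5.35 in P6H12, 5.46, 5.64, 5.61 and 5.33 in the hypoxia animals, and 5.37 and 5.51 in the control litter P6H8. The part of the name prefix in this was not tested.

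In the stress response, 3 of 29 genes had an unadjusted p under 0.05, all lower in HIE, beside 1.83% of all genes. They were Ddit3, Ppp1r15a and Atf4. These act in 1 pathway, since Atf4 induces Ddit3 and Ppp1r15a, which restores translation. Ppp1r15a stood at 78.7, 101, 83.5 and 60.9 CPM in HIE and 131, 108, 105 and 107 CPM in hypoxia, and Atf4 at 104, 123, 105 and 91.1 CPM and 160.0, 125, 118 and 141 CPM. The median of the list was -0.013. Replication-dependent histone genes were positive in 25 of 33 (median 0.18), with H3c3 at 14.3, 13.6, 8.27 and 11.4 CPM and 6.60, 5.68, 7.93 and 9.15 CPM. Their median was 0.50 with P4H1 as the only HIE litter and -0.17 with P6H12, so that it changed sign between the HIE litters. The mean log2 CPM of the histone genes was 4.42 and 4.29 in P4H1 and 4.15 and 4.40 in the control litter P4H4. It was 3.50 to 3.98 in P6H12, the hypoxia litters and the control litter P6H8. Genes of S phase were positive in 19 of 32 (median 0.025, and -0.0069 when scaled by library size alone) and genes of mitosis in 23 of 30 (median 0.077).

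The remaining lists had medians between -0.045 and 0.084. Cholesterol genes were positive in 12 of 28 and included Srebf1, a regulator of lipid synthesis, at 99.2, 96.0, 75.3 and 73.3 CPM in HIE and 54.7, 61.8, 68.5 and 67.7 CPM in hypoxia. The list of TGF-beta signalling and microglial transcription factors was positive in 19 of 31. It held Ltbp3 (0.45), the clock gene Nr1d1 (0.50) and Maf (-0.35) at an unadjusted p under 0.05. Among 41 chromatin modifiers, Kat2b, a histone acetyltransferase, had -0.21. Cytosolic ribosomal protein genes were positive in 14 of 34, actin and motility genes in 17 of 34 and NRF2 and oxidative burst genes in 19 of 26. Across these 24 lists and the 15 marker lists, 39 in all, the median kept its sign in 5 under every other scaling, without each animal and with each single litter. These were the interferon, immediate early, axon-tract and disease-associated, choroid plexus and dendritic cell lists. It changed sign with a single litter in 33 lists and without 1 animal in 24. None of the 39 lists held a called gene, beside 0.00955% of all genes.

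Some large differences followed single litters. Slc2a5, the microglial fructose transporter, stood at 187, 186, 12.7 and 13.7 CPM in the HIE animals, so that P4H1 was high and P6H12 low. The hypoxia animals stood at 9.25, 5.57, 14.9 and 9.09 CPM, within the range of P6H12 or below, except for the P6H9 male. Against hypoxia, the log2 fold change was 3.34 with both HIE litters and 4.25 with P4H1 alone, where it passed the test (edgeR adjusted p = 0.0109). Vps37b, a subunit of the ESCRT-I sorting complex, was at 167, 208, 47.6 and 42.2 CPM in the hypoxia animals, high in P6H7 and low in P6H9, and at 44.8, 53.8, 47.4 and 37.9 CPM in HIE. Abcb9, a lysosomal peptide transporter encoded on the same chromosome, was also high in P6H7 and low in P6H9, with 22.2, 35.1, 6.95 and 6.08 CPM in hypoxia and 9.68, 7.94, 7.58 and 6.75 CPM in HIE. With P6H9 as the only hypoxia litter, the log2 fold changes of Vps37b and Abcb9 turned from -1.37 and -1.17 to 0.0354 and 0.29. With P6H7 alone, Vps37b was -2.04 and passed (edgeR adjusted p = 0.00437). All 4 controls were above the HIE animals in Vps37b (104, 124, 109 and 134 CPM). Vps37b was the only gene called between HIE and controls in edgeR's quasi-likelihood test, 0.00478% of those tested (-1.36, adjusted p = 0.0172). In that comparison 2067 genes had an unadjusted p under 0.05. With genes taken that both edgeR and DESeq2 called, the authors reported more genes for P14. Cwc22, a splicing factor with near-identical copies that could share its reads, stood at 29.2, 34.2, 27.0 and 577 CPM in HIE and 559, 469.5, 29.3 and 30.6 CPM in hypoxia. The P6H12 female and both P6H7 animals were high and the other 5 animals low, so that litter mates differed within P6H12.

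**Figure D4:**
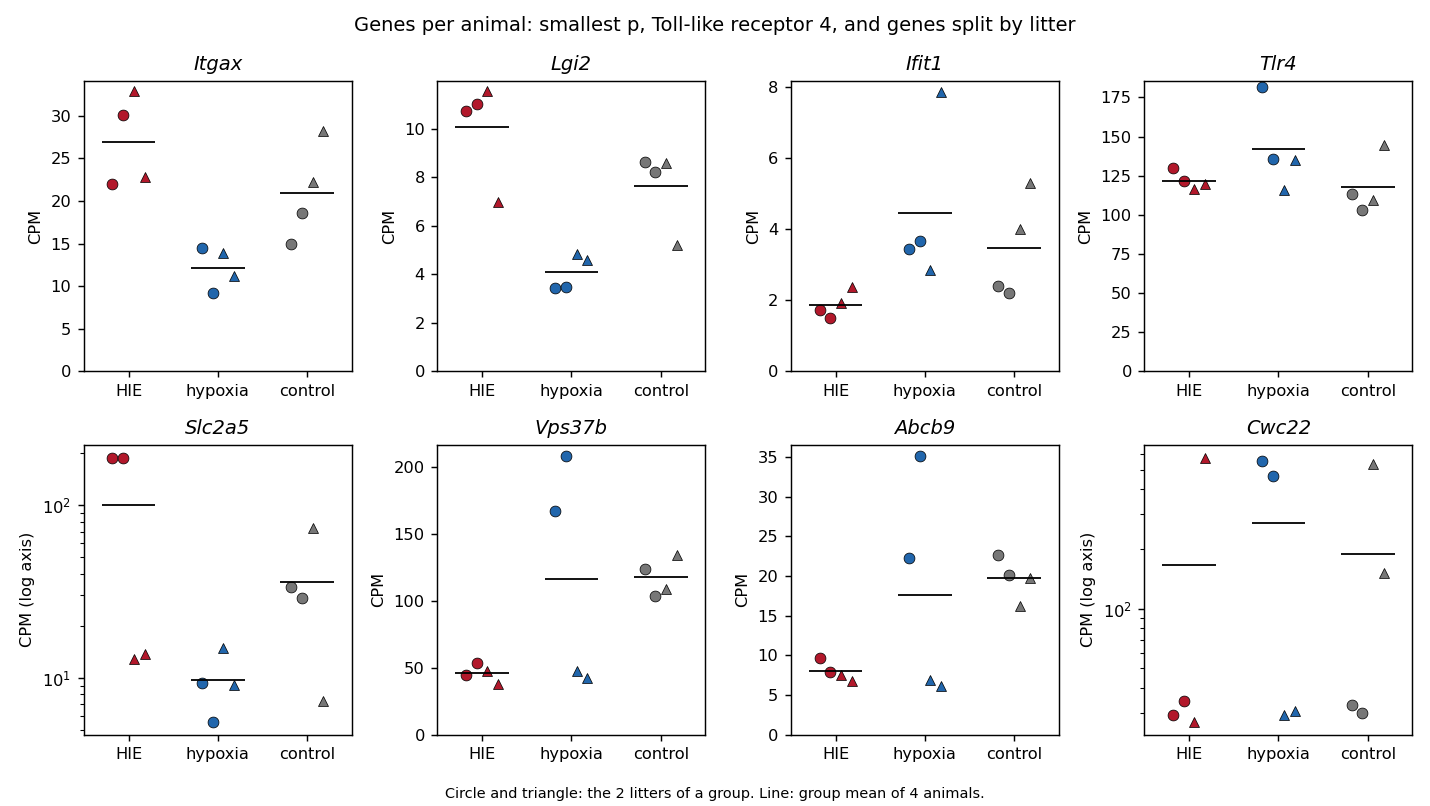
Level in each animal, in CPM, of Itgax, Lgi2, Ifit1, Tlr4, Slc2a5, Vps37b, Abcb9 and Cwc22, with log axes for Slc2a5 and Cwc22. Circles and triangles are the 2 litters of a group and lines are group means. HIE and hypoxia animals lie apart in Itgax, Lgi2 and Ifit1, and the controls overlap the HIE animals in each of these. Slc2a5, Vps37b and Abcb9 divide by litter within a group.

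Markers of cell types that should be rare in the preparation also varied. All 13 genes of choroid plexus and ependyma had a positive log2 fold change (median 0.99). At an unadjusted p under 0.05, 8 were higher in HIE, beside 2.68% of all genes, although 0 were called. Their summed level was 2582 to 6883 CPM in HIE, 1231 to 3433 CPM in hypoxia and 1712 to 5244 CPM in controls. The defining marker Ttr, the transthyretin of choroid plexus, was at 4497, 2716, 1668 and 2102 CPM in HIE and 769, 2229, 1618 and 2199.6 CPM in hypoxia, at 0 in no animal. Kl stood at 74.9, 45.8, 25.7 and 33.5 CPM and 10.6, 31.3, 16.6 and 27.8 CPM, Rarres2 at 23.9, 12.8, 11.0 and 18.5 CPM and 4.74, 6.19, 11.2 and 10.2 CPM, and Calml4 at 25.7, 13.2, 10.8 and 17.0 CPM and 2.71, 6.92, 11.6 and 9.33 CPM. Of the 8 animals, the P4H1 male was the highest and the P6H7 male the lowest in each of these. The list median was 0.68 without the P4H1 male, and 0.43 with P6H12 as the only HIE litter. The part of these cells in the differences of other genes was not tested.

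Astrocyte markers were positive in 10 of 13 (median 0.32), with summed levels of 2319 to 3484 CPM in HIE and 1505 to 2074 CPM in hypoxia. The median was -0.088 with P6H12 as the only HIE litter. Slc1a3, a glutamate transporter of astrocytes, was at 1613, 1388, 1496 and 1245 CPM and 781, 308, 844 and 728 CPM (log2 fold change 1.09, SE 0.270, adjusted p = 0.999, edgeR). It was the only 1 of the 13 markers in which every HIE animal lay above every hypoxia animal, beside 1.64% of all genes. The mean log2 CPM over the list overlapped, at 6.65, 5.64, 5.52 and 5.91 in HIE and 4.94, 5.80, 5.92 and 5.86 in hypoxia. Neuronal markers were negative in 16 of 16 (median -0.27), with 329 to 465 CPM and 399 to 676 CPM, and Meg3, a long noncoding RNA of neurons, was at 72.1, 79.0, 141 and 106 CPM and 144, 182, 178 and 144 CPM. Oligodendrocyte markers were negative in 9 of 12 and those of their progenitors in 8 of 9 (medians -0.23 and -0.37). With P6H7 as the only hypoxia litter, the medians of neurons, oligodendrocytes and progenitors turned positive (0.20, 0.63 and 0.35). Of the endothelial and mural markers, Pltp, which moves phospholipids between lipoproteins, stood at 235, 205, 154 and 163 CPM and 102, 151, 144 and 147 CPM.

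The lists of microglia, other macrophages and blood cells held no called gene, beside 0.00955% of all genes. Of these only the dendritic cell list kept the sign of its median in all settings. Summed levels were 24483 to 36433 CPM in HIE and 22157 to 33362 CPM in hypoxia for microglia, 2703 to 3973 and 2304 to 3703 CPM for border-associated macrophages, 619.7 to 730.2 and 441 to 749.7 CPM for monocytes and 130.02 to 502 and 105 to 375 CPM for neutrophils. Medians of these 4 lists lay between 0.016 and 0.10. Of the T and NK cell list 4 of 15 genes and of the B cell list 5 of 8 passed the filter on low counts, and their medians were -0.011 and 0.14. The erythroid list had a median of 0.026 and its summed level ranged from 49.97 to 675 CPM among hypoxia animals. Dendritic cell markers had a median of 0.16, endothelial and mural markers of 0.0085 and meningeal fibroblast markers of 0.13.

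**Figure D5:**
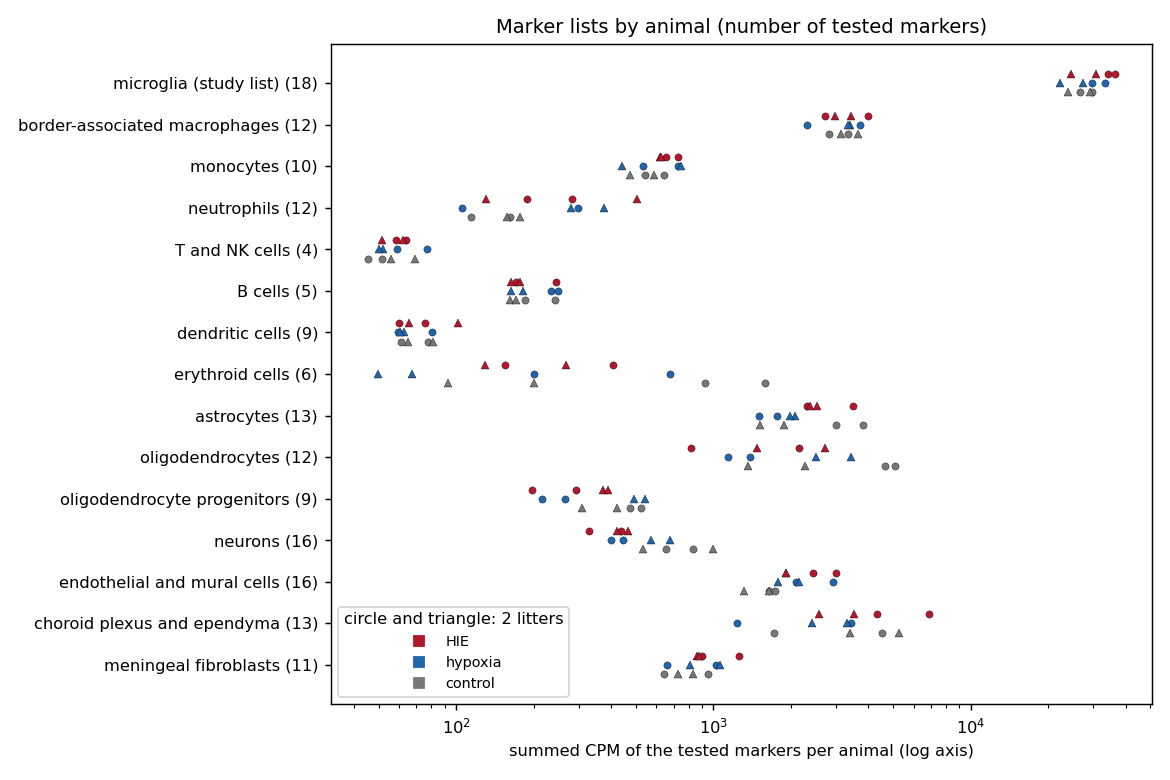
Summed CPM of the tested markers of 15 cell types in each animal (log axis), with circles and triangles for the 2 litters of a group. Microglial markers have the highest sums in all animals. HIE and hypoxia animals overlap in every list except astrocytes, where Slc1a3 had the highest level of the markers in all 4 HIE animals. Controls span both groups in astrocytes, lie above the HIE animals in neurons and lie below both groups in endothelial and mural cells.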

How the data were processed

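Strand-specific total RNA libraries depleted of ribosomal RNA were made from CD11b+ brain cells enriched on magnetic beads. Reads were aligned to GRCm39 with STAR 2.7.10b (Sentieon version), and the authors deposited expected counts per gene estimated by RSEM 1.3.1, not scaled for depth. RSEM divides reads shared between genes, and the gene annotation used is not given in the sources used here. A second matrix of libraries from other ages was not used here.

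Expected counts of the 2 libraries of an animal were summed and rounded to whole numbers. Genes were filtered with filterByExpr (minimum count 10), scaled by TMM and tested by edgeR 4.0.16 quasi-likelihood fits in R 4.3.3, 4 HIE against 4 hypoxia animals, with Benjamini-Hochberg adjustment at 0.05. The procedure was tested on simulated data. CPM are scaled by TMM over all 12 animals of this age. Of 56691 listed genes, 56017 matched GENCODE M39, which supplied positions and sequences. Copies were aligned to Npm1-201 (identity of at least 90% over at least 50% of the copy). No promoter of a called gene was in the promoter table, so none is shown.

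Genes named are those called, the 10 protein-coding genes with the smallest p in each direction, members of each list with the largest changes at an unadjusted p under 0.05, the most abundant markers, and a set of receptor, cytokine and microglial genes. Gm14681, Rpl30-ps9, Nlrp1c-ps, Npm1, Gm5611, Gbp10 and ENSMUSG00000067017.6 were chosen after their values were seen. Cd63, Cd9, Lpl, Npc1 and H2-Aa were also named outside these rules, after their values were seen. They complete the genes at an unadjusted p under 0.05 in their lists. The animals, gene lists and rules were chosen with earlier results of these data known. Alternatives were DESeq2 1.42.0, edgeR's exact test, limma 3.58.1 (voom) with litter as a random block, other scalings and filters, covariates, single litters or libraries and leaving out each animal. limma-voom without a litter block and fits of males or females only were added after seeing the data.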

Additional observations from a re-analysis of the deposited data

Results flagged for a closer look

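Of 242 sets of 4 animals examined (each followed gene or list within a group), 15 had an animal set apart from the other 3 by Dixon's test at 95%, and chance alone marks about 1 in 20 such sets. In the HIE group, the P6H12 male stood at 26.5 CPM in Nhs, against 13.8 to 14.5 CPM in the other 3 animals. The P6H12 female stood apart in Cwc22 at 577 CPM (27.0 to 34.2 in the others), in Gbp6 at 3.54 CPM (1.98 to 2.18) and in Gbp10 at 1.59 CPM (0.586 to 0.741). The P4H1 male had a mean log2 CPM of 6.35 over the chromatin modifiers (6.58 to 6.62) and of 6.11 over the meningeal fibroblast markers (5.56 to 5.59).

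In the hypoxia group, the P6H9 female was high in the interferon-induced genes Ifit1 at 7.86 CPM (2.84 to 3.68 in the other 3 animals) and Oasl2 at 15.1 CPM (6.35 to 6.64). The P6H7 male was high in Ppp1r15a at 131 CPM (105 to 108) and low in Pltp at 102 CPM (144 to 151). Its mean log2 CPM was 5.28 over the complement genes (5.05 to 5.08) and 4.94 over the astrocyte markers (5.80 to 5.92). The P6H7 female was low in Ccl12 at 25.6 CPM (45.9 to 49.1) and in Nfkbiz at 146 CPM (182 to 187). The P6H9 male had a mean log2 CPM of 6.38 over the chromatin modifiers (6.57 to 6.60).

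The difference between HIE and hypoxia differed between the sexes in 1 of 22328 genes tested with edgeR's interaction term, ENSMUSG00000067017.6, which matched no symbol (log2 difference of males minus females -4.28, adjusted p = 0.0471). At an unadjusted p under 0.05 there were 207 such genes. Its level was 56.8, 2.89, 50.2 and 2.26 CPM in the hypoxia animals, high in both males, and 2.502, 2.22, 1.79 and 1.74 CPM in the HIE animals. In the controls it was 2.31, 2.57, 78.6 and 41.5 CPM, high in the male and the female of P6H8.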

How the results depend on the processing

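Both calls remained with RLE size factors, library size alone, a filter of 1 CPM, the bias-adjusted fit, either library of an animal, limma-voom without the litter block and the microglia score as a covariate. The number of genes called, 2, became 5 without a filter on low counts, 15 in DESeq2 (9 higher, 6 lower), 17 in edgeR's exact test (9 higher, 8 lower) and 12 in both of these tools (6 higher, 6 lower). It became 1 in limma-voom with litter as a random block, where the correlation within litters was 0.411, 1 with sex as a covariate, and 1 in males only or females only. It became 6 with P4H1 as the only HIE litter, and 4 with P6H7 and 5 with P6H9 as the only hypoxia litter. It became 0 with all 3 groups in the fit or with protein-coding genes only (728 at an unadjusted p under 0.05 in edgeR). Without 1 animal it ranged from 1 to 3, at 1 without either P4H1 animal, the P6H12 female or the P6H9 female. Gm9118 was also not called in males only (adjusted p = 0.484) and females only (adjusted p = 0.0610, edgeR). The cause of these changes was not tested.

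Over 80 genes, the log2 fold change turned sign under an alternative in 39 instances, for 12 genes, none of them called in the main comparison. With P6H12 as the only HIE litter it was -0.0083 in Tmem119, -0.080 in Hif1a, -0.040 in Cd14, -0.22 in P2ry12, -0.079 in Npm1, 0.11 in Cwc22 and 0.016 in Vegfa. With P4H1 only it was 0.20 in Tnf and 0.17 in Il1b. With P6H7 only it was -0.067 in Tmem119, -0.017 in Cx3cr1, -0.21 in P2ry12, 0.37 in Il1b and 0.11 in Vegfa. With P6H9 only it was 0.035 in Vps37b, 0.29 in Abcb9 and 2.48 in Cwc22. In females only it was 0.12 in Tnf, 0.26 in Cwc22 and 0.63 in Il1b, and in males only -0.16 in Cd14 and 0.16 in Vegfa. Il1b was 0.054 and 0.042 in limma-voom with and without the litter block and 0.0050 with sex as a covariate. With the microglia score as a covariate Vegfa was 0.031 and P2ry12 -0.087, and P2ry12 was -0.0064 with library size alone and -0.00036 with protein-coding genes only. Without 1 animal, it ranged from -0.00018 to 0.16 in Hif1a, from -0.025 to 0.26 in Cd14, from -0.35 to 0.25 in Il1b, from -0.14 to 0.11 in Vegfa and from -0.14 to 0.13 in P2ry12.

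No paired analysis was possible because the labels give the groups no shared replicate numbers and each litter holds 1 treatment. Medians of MHC, S phase, border-associated macrophage and endothelial genes turned negative with library size alone, and those of chromatin and actin genes positive with RLE factors, 6 of 39 lists. With 4 animals a group and a median SE of 0.218, smaller differences than 0.485 on the log2 scale were within the 95% interval of the typical gene. Depth limited Gm9118 and Gm6477 in the HIE animals, where they rested on 4 to 22 counts.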
